A study of Homo sapiens with 15 samples.

Results

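The SOX transcription factor genes were examined in ChIP-seq data of 2 histone marks in breast cancer cells. The 10 genes were SOX2, SOX4, SOX5, SOX6, SOX7, SOX8, SOX9, SOX11, SOX13 and SOX18. An H3K4me3 peak was taken as a member when it lay within 2 kb of an annotated transcript start of a listed gene, and an H3K27ac peak when it lay within 100 kb and its nearest protein-coding start belonged to a listed gene. This gave 10 of the 22572 H3K4me3 peaks, at 7 of the genes, and 50 of the 62195 H3K27ac peaks, at 9 of the genes. H3K4me3 marks active or poised promoters, and H3K27ac marks active promoters and enhancers.

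The cells were MDA-MB-231, a human triple-negative breast cancer cell line of the claudin-low type (Par), and 2 sub-populations obtained from it by selection in mice, LM2, which colonizes the lung, and BrM2, which colonizes the brain. All cells were cultured with 10% serum for 3 days and fixed with 1% formaldehyde for 10 min, per the labels. There were 2 biological replicates per line and mark, so 12 libraries carried counts. Total counts in peaks ranged from 3489607 to 9839629 in the 6 H3K4me3 libraries and from 1994996 to 6450028 in the 6 H3K27ac libraries. LM2 and BrM2 are each 1 selected sub-population, so a difference between lines is a difference between these cultures. Levels below are counts scaled by the library's total in peaks, as counts per 1000000 (CPM). A bulk library cannot tell apart fewer cells carrying a mark and less of the mark per cell.

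SOX proteins bind the minor groove of DNA through an HMG box, a domain that bends DNA and recognizes sequences built around AACAAT or AACAAAG. The family falls into groups by the similarity of this domain. SOX2 (group B1) maintains pluripotent and neural progenitor cells, and SOX4 and SOX11 (group C) act in neuronal and mesenchymal progenitors and are often raised in breast tumors. SOX5, SOX6 and SOX13 (group D) form dimers through a coiled coil, have no activation domain of their own, and use many alternative promoters. SOX8 and SOX9 (group E) act in cartilage, testis and neural crest, and SOX9 also marks mammary progenitors. SOX7 and SOX18 (group F) act in endothelial cells. In cartilage SOX9 works together with SOX5 and SOX6 on matrix genes.

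The starts of SOX5 and SOX6 are shown first, because these group D genes held the H3K4me3 peaks that passed the test below, and in each gene a second start did not. Each sequence is the 250 bases before a start, in GRCh37 (hg19) on the minus strand, from which both genes are transcribed, and none of them overlaps an annotated exon. Capitals mark matches on either strand to AACAAT or to ACAATGG, a pair of motifs that can overlap each other. The first lies before the internal SOX6 start whose peak passed the test, the next before the outermost SOX6 start, the third before the reference (MANE Select) start of SOX5, and the last before the outermost SOX5 start.
SOX6 internal start, chr11:16629275-16629524: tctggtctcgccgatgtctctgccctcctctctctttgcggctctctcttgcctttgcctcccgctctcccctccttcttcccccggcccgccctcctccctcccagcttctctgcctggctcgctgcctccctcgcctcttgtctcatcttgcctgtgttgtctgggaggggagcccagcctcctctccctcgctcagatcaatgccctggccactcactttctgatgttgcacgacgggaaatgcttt
SOX6 outermost start, chr11:16761139-16761388: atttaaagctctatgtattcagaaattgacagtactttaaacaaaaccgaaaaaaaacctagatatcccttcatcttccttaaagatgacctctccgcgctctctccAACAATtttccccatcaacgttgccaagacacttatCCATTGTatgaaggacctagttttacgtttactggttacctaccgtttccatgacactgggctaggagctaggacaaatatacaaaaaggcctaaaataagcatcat
SOX5 reference start, chr12:24102605-24102854: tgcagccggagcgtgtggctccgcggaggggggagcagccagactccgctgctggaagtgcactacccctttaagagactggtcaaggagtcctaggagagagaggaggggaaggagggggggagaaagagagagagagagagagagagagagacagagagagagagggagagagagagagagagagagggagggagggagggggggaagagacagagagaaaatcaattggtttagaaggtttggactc
SOX5 outermost start, chr12:24715479-24715728: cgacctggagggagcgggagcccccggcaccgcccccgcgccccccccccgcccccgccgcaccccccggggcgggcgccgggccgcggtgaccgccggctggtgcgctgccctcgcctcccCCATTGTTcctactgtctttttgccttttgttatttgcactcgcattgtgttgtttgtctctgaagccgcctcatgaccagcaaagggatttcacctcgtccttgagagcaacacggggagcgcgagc

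Neither window whose peak passed the test held a match to AACAAT, to the related motif AACAAAG, to the longer motif ACAATGG or to TATAAA, the core of the TATA box. The windows of the outermost starts of SOX6 and SOX5 each held 1 AACAAT and 1 ACAATGG, which overlap each other in SOX5. Among the same 250 bases before 35116 starts in the RefSeq promoter table (GRCh38.p14), 9.0% held AACAAT, 4.5% AACAAAG, 2.6% ACAATGG and 10.7% TATAAA. The internal SOX6 window had 62.0% G and C with 11 CpG pairs, close to the medians of 58.0% and 11 over the table. The reference SOX5 window had 57.6% and 5 CpG pairs, and the outermost SOX5 window 68.8% and 25. That table held 5 of the 10 genes, SOX2, SOX4, SOX5, SOX6 and SOX13.

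H3K4me3 at the starts ranged from strong to absent. SOX4 had the highest H3K4me3 level per length, 49.5 CPM per kb averaged over the 6 libraries, at the 95.3rd percentile of all H3K4me3 peaks. SOX13 followed with 42.8 CPM per kb (91.3rd percentile), then the internal SOX6 start with 30.5, SOX9 with 29.5 and the outermost SOX5 start with 27.9. The median of all H3K4me3 peaks within 2 kb of a protein-coding start was 23.4 CPM per kb. SOX2 (17.5 CPM per kb) and SOX18 (7.87) lay below it. The reference start of SOX5 held 3.84 CPM per kb (27.9th percentile), and a second SOX13 peak in an intron, 299 bp from a start, held 1.70 (3.80th percentile).

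SOX7, SOX8 and SOX11 had no H3K4me3 peak within 2 kb of a start in the pooled peak set. The nearest H3K4me3 peak lay 75.8 kb from the reference start of SOX7, 10.3 kb from that of SOX8 and 388.5 kb from that of SOX11. SOX8 had no H3K27ac member either. SOX6 was unusual in that its reference start lay 247.5 kb from the nearest H3K4me3 peak, so both of its H3K4me3 peaks lay at starts farther upstream. Of these, the peak at the outermost start (chr11:16759234-16762134) also covers the start of C11orf58, a gene transcribed the other way, and its counts cannot be divided between the genes. The SOX18 peak likewise covers a start of TCEA2.

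The internal SOX6 start gained H3K4me3 in both metastatic sub-populations. Its peak (chr11:16625604-16630199) lies 4596 bp wide over the starts of 2 transcripts without a defined coding sequence. H3K4me3 there was 64.8 and 85.8 CPM in Par, against 148 and 180 in LM2 and 163 and 199 in BrM2. Both libraries of each sub-population were above both Par libraries. The log2 fold change was 1.16 ± 0.30 (SE) in LM2 (2.23-fold, DESeq2 adjusted p = 0.00711) and 1.21 ± 0.30 in BrM2 (2.31-fold, adjusted p = 0.0029). Between BrM2 and LM2 it differed by 0.05 (95% interval -0.53 to 0.62, adjusted p = 0.996). At the outermost SOX6 start, by contrast, H3K4me3 was 60.2 and 91.3 CPM in Par, against 49.1 and 87.1 in LM2 and 57.0 and 92.1 in BrM2. The libraries of the 3 lines overlapped there, with log2 fold changes of -0.14 (95% interval -0.81 to 0.54) in LM2 and -0.09 (-0.77 to 0.59) in BrM2.

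The reference start of SOX5 gained H3K4me3 in LM2. The peak (chr12:24102138-24104120) held 1.43 and 2.53 CPM in Par, against 8.49 and 17.1 in LM2 and 4.37 and 11.8 in BrM2. Every LM2 and BrM2 library was above both Par libraries, although counts were low in Par, at 5 and 17 reads. LM2 was higher by 2.67 ± 0.63 on the log2 scale (6.38-fold, adjusted p = 0.00224). BrM2 differed from Par by 1.92 ± 0.64 (adjusted p = 0.0676), short of the threshold of 0.05, and from LM2 by -0.75 (95% interval -1.85 to 0.35). With the replicate number as a block, the BrM2 difference passed the test (adjusted p = 0.00302), as it did with the median of the surrounding 5 Mb removed (2.2, adjusted p = 0.0232). edgeR without a block gave an adjusted p of 0.117, and without BrM2 replicate 2 the difference was 1.22 (adjusted p = 0.988). At the outermost SOX5 start (chr12:24713923-24717367) H3K4me3 was 71.1 and 79.2 CPM in Par, against 114 and 130 in LM2 and 80.1 and 102 in BrM2. The LM2 libraries lay above all others there, at 0.73 ± 0.31 over Par, which passed only with the replicate block (adjusted p = 3.20e-06 against 0.309 without it).

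**Figure D1:**
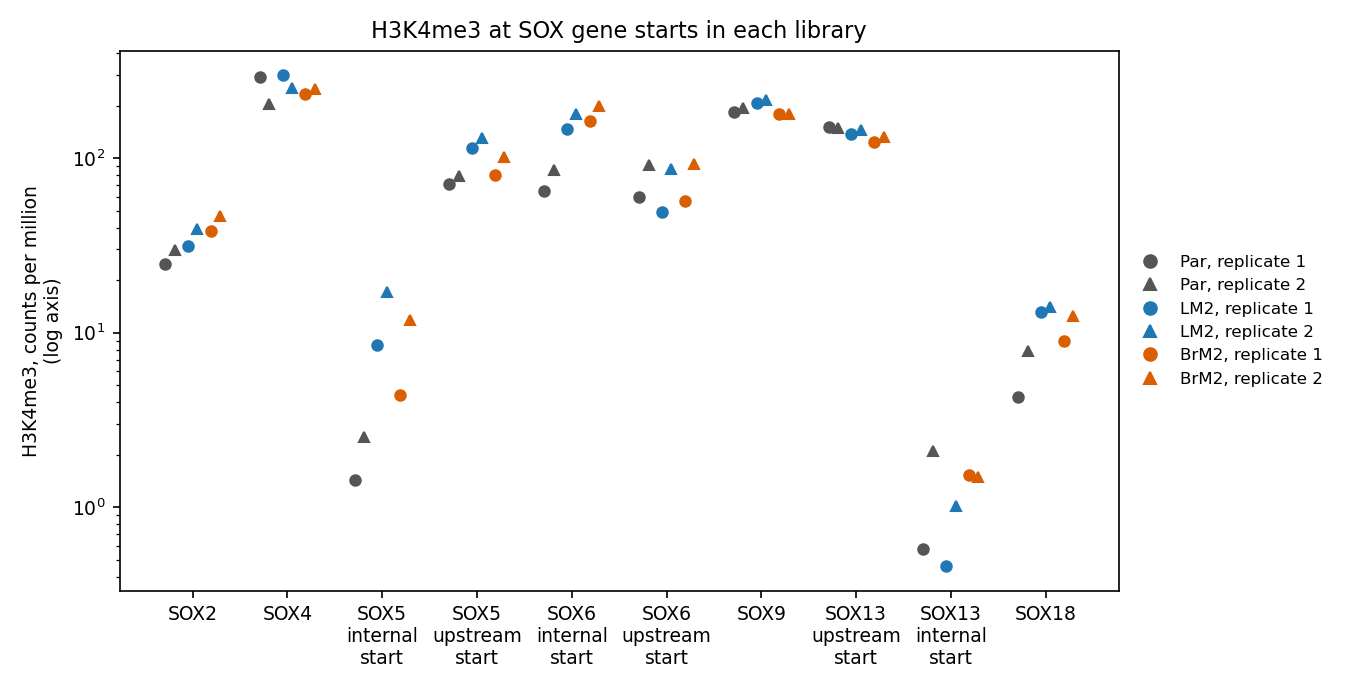
H3K4me3 level (CPM, log axis) of each of the 10 SOX member peaks in the 6 libraries, with 1 symbol per library, colored by line; the upstream start is the outermost one, and the internal SOX5 start is its reference start. At the internal starts of SOX5 and SOX6 both Par libraries lie below the 4 libraries of LM2 and BrM2, while at the upstream SOX6 start the lines overlap.

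Of the 10 H3K4me3 member peaks, 2 passed the test in LM2 against Par, where 2.51% of all tested H3K4me3 peaks did, and 1 in BrM2 against Par, where 3.61% did. All of these were higher in the sub-population, as were 1.97% and 2.82% of all tested peaks. With the replicate block, 4 members passed in LM2 (14.4% of all peaks) and 3 in BrM2 (17.7%), the additions being the outermost SOX5 start and SOX18 (adjusted p = 0.0247) in LM2, and SOX2 (adjusted p = 0.0395) and the reference SOX5 start in BrM2. With the block in DESeq2, the internal SOX6 start had 1.15 ± 0.12 in LM2 (adjusted p = 6.17e-20) and 1.20 ± 0.12 in BrM2 (9.29e-22). The reference SOX5 start had 2.74 ± 0.52 in LM2 (adjusted p = 7.22e-06). With or without the block the calls rest on 2 libraries per line. The fits below without single libraries had no block, so the calls with the block were not checked in this way. The SOX6 call in LM2 was not made without Par replicate 1 (adjusted p = 0.218), Par replicate 2 (0.210), LM2 replicate 1 (0.207) or LM2 replicate 2 (0.143), and edgeR without a block gave 0.113, while the log2 fold change stayed between 1.11 and 1.21. In BrM2 the adjusted p of that peak was 0.157 and 0.0961 without Par replicate 1 or 2, 0.0902 and 0.106 without BrM2 replicate 1 or 2, and 0.0674 in edgeR, with log2 fold changes of 1.14 to 1.26 without single libraries. The SOX5 call was lost without Par replicate 1 (0.0852), Par replicate 2 (0.161) or LM2 replicate 2 (0.317).

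SOX6 also gained H3K27ac at several peaks along the gene in both sub-populations. Of its 8 H3K27ac peaks, 6 received an adjusted p against Par. Of these, 4 were called higher in LM2 and 3 in BrM2, and none lower, where 2.72% and 3.62% of all tested H3K27ac peaks were called higher. The median log2 fold change of the 8 peaks was 1.82 in LM2 and 1.62 in BrM2, including the peaks without an adjusted p. Over all tested H3K27ac peaks, which all had one, it was -0.04 and -0.01. The 5 SOX6 peaks with 20 or more normalized counts on average had medians of 1.16 and 1.46. With the peak that had no counts in Par set against a floor of 3 counts there, the medians of the 8 were 1.79 and 1.62. Reads of all 8 peaks summed to 76.6 and 72.8 CPM in Par, against 132 and 151 in LM2 and 152 and 151 in BrM2, so that the Par libraries lay below the other 4.

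The widest of these peaks (chr11:16173877-16178988, 5112 bp, in an intron and 40462 bp from the nearest start) had 4.79 and 5.22 CPM in Par, against 25.6 and 29.3 in LM2 and 36.7 and 29.6 in BrM2. Its libraries separated Par from the other lines with a wide margin. The log2 fold change was 2.39 ± 0.40 in LM2 (5.24-fold, adjusted p = 1.20e-06) and 2.74 ± 0.41 in BrM2 (6.68-fold, adjusted p = 1.05e-08). It was called in both comparisons under all 13 alternatives, including those without each of the 6 libraries, where log2 fold changes ranged from 2.27 to 2.51 in LM2 and from 2.58 to 2.88 in BrM2. BrM2 and LM2 differed by 0.35 (95% interval -0.34 to 1.04, adjusted p = 0.779).

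The other 3 called SOX6 peaks fell outside the rule for named peaks and were chosen after their values were seen. The peak at the internal start (chr11:16625870-16629938), which lies within the H3K4me3 peak described above, had 17.8 and 11 CPM of H3K27ac in Par, against 29.5 and 38.3 in LM2 and 39.3 and 40.1 in BrM2. Par was below both sub-populations in every library, by 1.16 ± 0.36 on the log2 scale for LM2 (adjusted p = 0.0367) and 1.46 ± 0.36 for BrM2 (adjusted p = 0.00306). An intronic peak 12792 bp from a start (chr11:16022160-16024081) had 2.96 and 3.39 CPM in Par, against 15.5 and 8.24 in LM2 and 9.43 and 8.52 in BrM2. It was called in LM2 (1.85 ± 0.55, adjusted p = 0.0287), and BrM2 differed from Par by 1.51 ± 0.58 (adjusted p = 0.112). Both LM2 calls were lost without each of the 6 libraries in turn, with adjusted p from 0.0588 (without Par replicate 1) to 0.530 (without Par replicate 2) at the internal start and from 0.0736 (without BrM2 replicate 2) to 0.879 (without LM2 replicate 1) at the intronic peak. They were also lost with 5 Mb window medians removed (0.104 and 0.0612) or with only LM2 and Par in the fit (0.0819 and 0.0539). At the internal start the BrM2 call was lost without Par replicate 2 (0.157), BrM2 replicate 1 (0.146) or BrM2 replicate 2 (0.0951).

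The remaining called SOX6 peak is only 265 bp long and had 0 counts in both Par libraries. It lies in an intron, 34303 bp from a start, and held 3.72 and 1.33 CPM in LM2 and 4.84 and 4.51 in BrM2, from 24, 5, 19 and 9 reads. Its mean CPM was 3.44-fold in LM2 and 6.38-fold in BrM2 over a floor of 3 counts in each Par library. These ratios bound only the Par side and leave out the spread of the LM2 and BrM2 reads. DESeq2 gave the peak adjusted p of 0.0192 in LM2 and 0.00274 in BrM2. Without single libraries it had no adjusted p in LM2, and in BrM2 only 1 of the 6 fits gave one, which was a call. Of 26 pieces of 36 bases taken from it every 9 bases, 19 (73.1%) occurred at more than 1 place in GRCh37, against 26 of 565 (4.6%) in the 5112 bp peak and 0 of 449 at the internal start. The part of reads with several possible places in this difference was not tested.

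**Figure D2:**
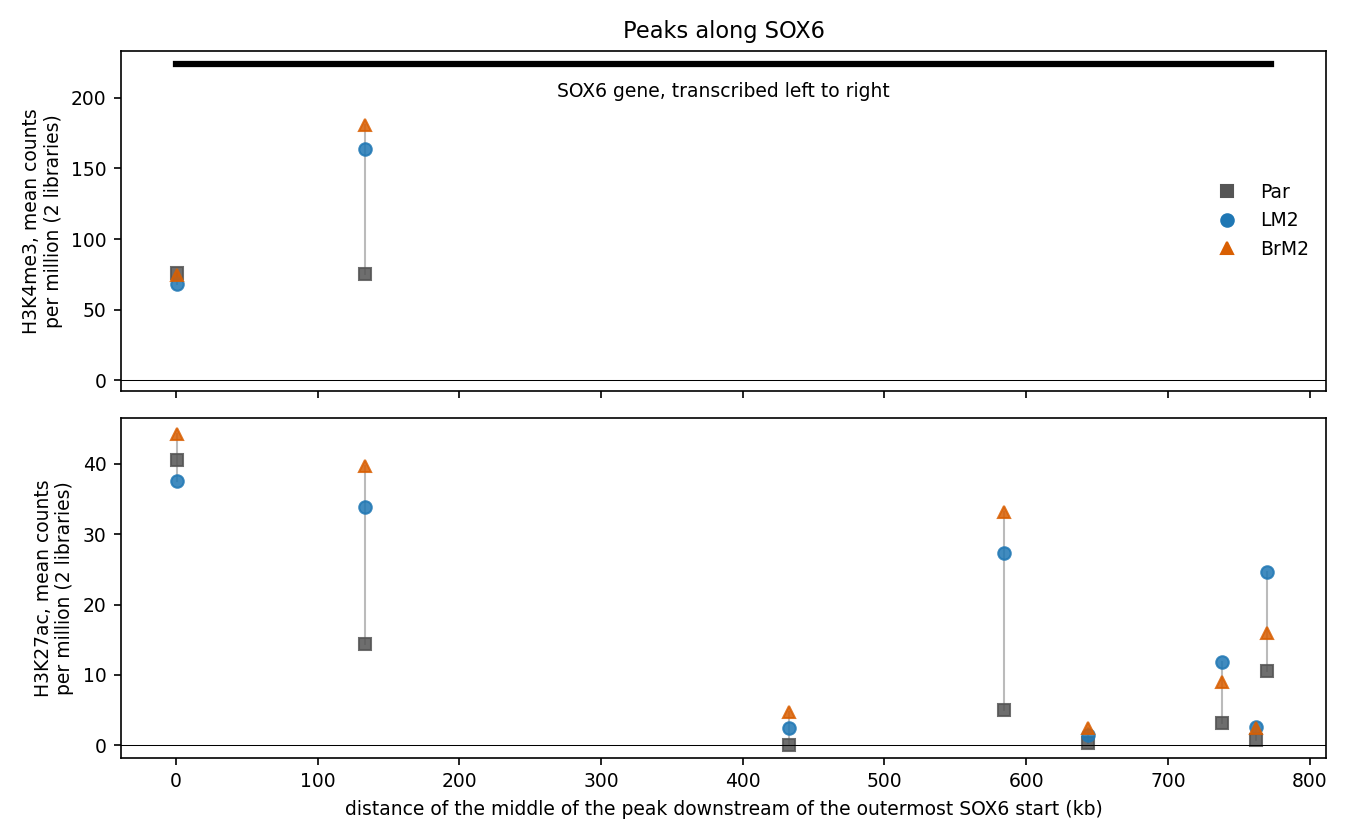
Mean CPM over the 2 libraries of a line for each H3K4me3 peak (top) and H3K27ac peak (bottom) of SOX6 against its distance downstream of the outermost start, with gray lines joining the 3 lines of cells. Par lies lowest at every peak except those at the outermost start (distance 0), where the lines lie close together.

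**Figure D3:**
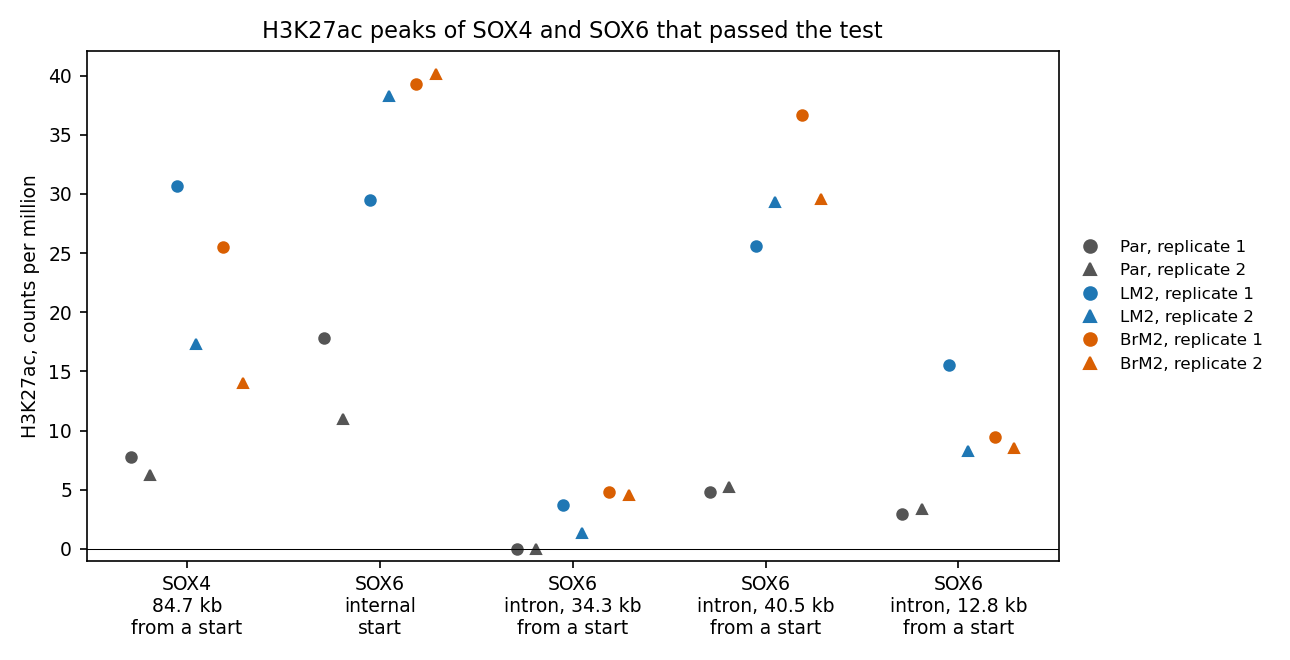
H3K27ac level (CPM) in each of the 6 libraries for the 5 peaks of SOX4 and SOX6 that passed the test in at least 1 sub-population, with 1 symbol per library. Both Par libraries lie below the other 4 at every peak, and at the 265 bp intronic peak, 34.3 kb from a start, Par is at 0.

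At SOX5 and SOX13, the other group D genes, DESeq2 called no H3K27ac peak. The SOX5 peaks lay mostly above Par: 5 of 6 had a positive log2 fold change in LM2 (median 1.15) and 6 of 6 in BrM2 (median 1.19), and 5 of the 6 received an adjusted p. Its highest peak, 51957 bp upstream (chr12:24767435-24771120), had 9.12 and 7.05 CPM in Par, against 10.1 and 17.8 in LM2 and 16.3 and 21.1 in BrM2, a log2 difference of 1.20 ± 0.46 for BrM2 (adjusted p = 0.115, and 0.00667 in edgeR with the block). At the reference start of SOX5 the H3K27ac level was 0.456 and 1.04 CPM in Par, against 3.88 and 4.79 in LM2 and 3.06 and 4.51 in BrM2, with adjusted p of 0.111 and 0.140. Both Par libraries were below the other 4 there, with 2 and 4 reads. An intronic SOX5 peak 61613 bp from a start, chosen after its values were seen, had 2 and 2 reads in Par and 27 and 14 in LM2, a ratio of CPM of 8.25 (95% counting interval 2.99 to 31.7), and received no adjusted p. DESeq2 called no SOX13 peak in either mark, with or without the block, while edgeR with the block called H3K4me3 at the main start lower in BrM2 than in Par (-0.31, adjusted p = 0.0012) and than in LM2 (-0.24, adjusted p = 0.0131). Its H3K4me3 at the main start was 152 and 149 CPM in Par, against 137 and 145 in LM2 and 124 and 133 in BrM2, with log2 fold changes of -0.07 (95% interval -0.68 to 0.54) and -0.30 (-0.91 to 0.31). Its 7 H3K27ac peaks had medians of 0.01 in LM2 and -0.28 in BrM2, and the highest, in an intron (chr1:204070066-204076082), held 39.9 and 49.1 CPM in Par, against 33.8 and 44.1 in LM2 and 39.0 and 48.6 in BrM2.

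In group C, SOX4 gained H3K27ac at a distant peak, while DESeq2 made no call at its promoter. The distant peak (chr6:21678719-21680369) overlaps no protein-coding gene and lies 84737 bp downstream of the SOX4 start, its nearest protein-coding start. Overlap with non-coding genes was not looked at. It had 7.75 and 6.26 CPM in Par, against 30.7 and 17.3 in LM2 and 25.5 and 14.0 in BrM2. All libraries of LM2 and BrM2 were above Par, and replicate 1 was above replicate 2 in each line. The log2 fold change was 1.71 ± 0.45 in LM2 (3.28-fold, adjusted p = 0.00819) and 1.52 ± 0.46 in BrM2 (2.87-fold, adjusted p = 0.0254). Neither call held once the median of the surrounding 5 Mb was removed (1.43, adjusted p = 0.0562, and 1.30, adjusted p = 0.0987). The LM2 call was lost without Par replicate 1 (0.0989), Par replicate 2 (0.205) or LM2 replicate 1 (0.682). The BrM2 call was lost without Par replicate 1 (0.144), Par replicate 2 (0.255), LM2 replicate 1 (0.0744) or BrM2 replicate 1 (0.740). Of 36-base pieces of this peak, 25.0% occurred more than once in GRCh37.

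The SOX4 promoter was among the strongest of the listed genes in every line. H3K4me3 was 293 and 205 CPM in Par, against 299 and 252 in LM2 and 235 and 249 in BrM2, with overlapping libraries and log2 fold changes of 0.17 (95% interval -0.54 to 0.88) and -0.14 (-0.85 to 0.58). H3K27ac at this promoter was at the 98.0th percentile per length and measured 68.2 and 55.1 CPM in Par, against 89.6 and 97.3 in LM2 and 57.9 and 65.2 in BrM2. LM2 lay above the other lines in both libraries (0.54 ± 0.27 over Par, adjusted p = 0.397). edgeR with the block called the promoter higher in LM2 than in Par for H3K27ac (0.54, adjusted p = 0.0198) and H3K4me3 (0.18, adjusted p = 0.0494), and lower in BrM2 than in LM2 for both (-0.56, adjusted p = 0.0194, and -0.27, adjusted p = 0.00117). DESeq2 with the block called none of these (adjusted p from 0.157 to 0.681). With 5 Mb window medians removed, the H3K27ac differences were 0.25 for LM2 against Par and -0.47 for BrM2 against LM2. The H3K4me3 difference between LM2 and Par changed sign without Par replicate 2 (-0.19) or LM2 replicate 1 (-0.18). SOX11, the other group C gene, had no H3K4me3 at its start and only 3 H3K27ac peaks, 56597 to 61269 bp upstream. The highest (chr2:5774884-5775919) had 4.11 and 3.65 CPM in Par, against 6.67 and 4.52 in LM2 and 11 and 10.0 in BrM2, which is 1.44 ± 0.56 for BrM2 over Par (adjusted p = 0.121). edgeR called this difference without the block (1.43, adjusted p = 0.0433) and with it (adjusted p = 0.0076).

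SOX2, the pluripotency factor of group B1, carried both marks at its start in a line of breast origin. H3K4me3 was 24.9 and 29.9 CPM in Par, against 31.4 and 39.1 in LM2 and 38.2 and 46.5 in BrM2. Each sub-population was above Par in both libraries, by 0.39 ± 0.34 and 0.56 ± 0.34 (adjusted p = 1.00 and 0.657). With the block BrM2 passed (0.0395) and LM2 did not (0.224). DESeq2 called none of its 7 H3K27ac peaks, with medians of 0.63 in LM2 and 0.64 in BrM2. The highest (chr3:181338264-181343412), 86301 bp upstream, had 35.8 and 22.7 CPM in Par, against 21.6 and 30.1 in LM2 and 46.9 and 35.1 in BrM2. edgeR with the block called it higher in BrM2 than in LM2 (0.74, adjusted p = 0.0277).

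SOX9, of group E, was broadly marked and differed little between lines. Its H3K4me3 peak was the widest of the H3K4me3 members, at 6540 bp, with 185 and 193 CPM in Par, against 207 and 216 in LM2 and 179 and 179 in BrM2. The lines did not overlap, but the log2 fold changes were small, 0.20 (95% interval -0.41 to 0.80) in LM2 and -0.14 (-0.75 to 0.46) in BrM2. Its H3K27ac peak of 9672 bp over the gene held 64.5 and 64.7 CPM in Par, against 52.1 and 70.7 in LM2 and 81.3 and 73.7 in BrM2. Unlike SOX6, SOX9 had a negative log2 fold change at 7 of its 9 H3K27ac peaks in each sub-population (2 positive, medians -0.47 and -0.30), none of them called by DESeq2.

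Peaks of the group F genes, which act in endothelial cells, had low CPM. Per length, however, the H3K27ac peak over the SOX18 start (6.87 CPM per kb) lay at the 74.5th percentile of all H3K27ac peaks. That over the SOX7 start (3.15) lay at the 14.0th, and H3K4me3 at SOX18 at the 41.7th of all H3K4me3 peaks. SOX18 had 4.3 and 7.89 CPM of H3K4me3 in Par, against 13.1 and 14.1 in LM2 and 8.95 and 12.5 in BrM2. Par was lowest, by 1.19 ± 0.48 for LM2 (adjusted p = 0.268, and 0.0247 with the block) and 0.75 ± 0.49 for BrM2 (adjusted p = 0.721). Its H3K27ac peaks followed the replicate number more than the line: the peak over the start had 0.912 and 5.74 CPM in Par, against 2.64 and 6.12 in LM2 and 1.53 and 7.52 in BrM2. At SOX7, the H3K27ac peak over the start had 3.88 and 3.13 CPM in Par, against 8.99 and 4.25 in LM2 and 2.80 and 2.51 in BrM2. DESeq2 made no call there with or without the block, and edgeR with the block called BrM2 lower than LM2 (-1.31, adjusted p = 0.048). With 5 Mb window medians removed that difference was -0.08. The other H3K27ac peaks within 2 Mb had a median of -1.34 in BrM2 against LM2.

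Over all listed genes, H3K27ac differed from Par at 5 of the 39 member peaks with an adjusted p in LM2 (3.63% of all tested H3K27ac peaks) and at 4 of 39 in BrM2 (5.29%). All were higher, as were 2.72% and 3.62% of all tested peaks. SOX6 and SOX4 supplied every one of these calls. The 11 other members had counts too low for an adjusted p. They are among the 50 below, whereas the values over all tested peaks leave such peaks out. In LM2, 36 of the 50 members had a positive log2 fold change (72.0%, median 0.50), against 46.5% and a median of -0.04 over all tested peaks. In BrM2 it was 32 of 50 (64.0%, median 0.43), against 49.4% and -0.01. The comparisons share the Par libraries, so their values are not independent. The replicate block gave 6 calls in LM2 (5.44% of all peaks), adding a SOX6 peak 43923 bp from a start (adjusted p = 0.031 against 0.0633), and 4 in BrM2 (8.13%).

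**Figure D4:**
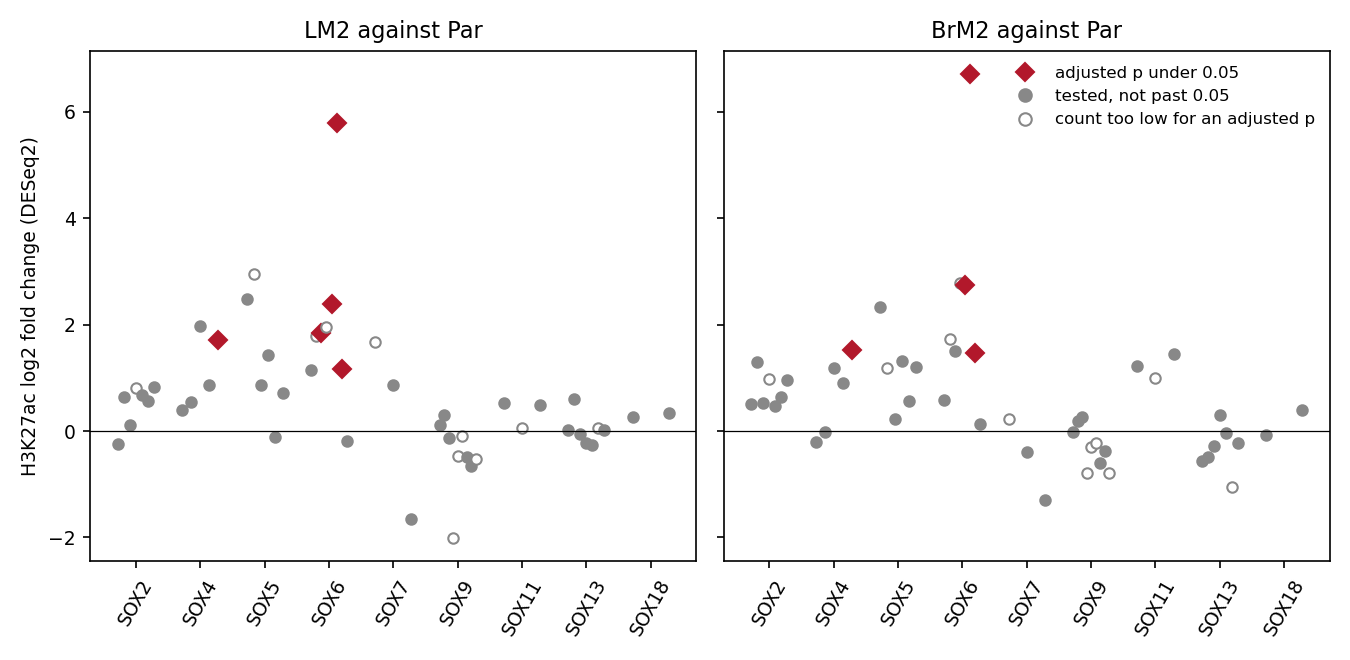
Log2 fold change of H3K27ac against Par (DESeq2) for each of the 50 member peaks, grouped by gene, for LM2 (left) and BrM2 (right); red diamonds passed an adjusted p of 0.05 and open circles had counts too low for an adjusted p. The 5 called peaks in LM2 and the 4 in BrM2 belong to SOX4 and SOX6, and the topmost SOX6 diamond is the 265 bp peak without counts in Par, whose fitted value is not a bound.

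Between the sub-populations no SOX peak passed the DESeq2 test. In BrM2 against LM2, 0 of 10 H3K4me3 members (3.18% of all tested peaks) and 0 of 38 H3K27ac members (2.94%) were called. At an unadjusted p under 0.05, DESeq2 had 0 of the H3K4me3 members and 1 of the H3K27ac members. The latter was the SOX2 peak 86301 bp upstream, which was 0.75 ± 0.36 higher in BrM2 than in LM2 on the log2 scale (DESeq2 adjusted p = 0.328). edgeR without a block also called 0 of each mark. With the replicate block, DESeq2 called 2 H3K4me3 members lower in BrM2 than in LM2, where 22.0% of all peaks were called and 13.0% were called lower, and 0 H3K27ac members, where 6.17% were called. The 2 were the outermost SOX5 start (-0.52 ± 0.13, adjusted p = 0.00103) and SOX9 (-0.34 ± 0.10, adjusted p = 0.00378).

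At the starts where both marks had a peak, the log2 fold changes of the marks are given side by side. All 10 H3K4me3 members overlapped an H3K27ac member of the same gene. At the reference SOX5 start the changes in LM2 were 2.67 for H3K4me3 and 2.48 for H3K27ac, and at the internal SOX6 start 1.16 and 1.16. In BrM2 they were 1.92 and 2.33 at SOX5 and 1.21 and 1.46 at SOX6. At the outermost SOX6 start both were near 0, at -0.14 and -0.18 in LM2. At SOX18 they were 1.19 ± 0.48 for H3K4me3 and 0.33 ± 0.86 for H3K27ac in LM2, and the difference between the marks was not tested.

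The SOX peaks were also set against the other peaks around each gene. Around SOX6, the 37 other H3K27ac peaks within 2 Mb and with 20 or more normalized counts on average had medians of 0.04 in LM2 and 0.13 in BrM2, with 0 and 1 called higher and 2 and 1 called lower. The 5 SOX6 peaks with as many counts had medians of 1.16 and 1.46. Around SOX5 the neighbors had medians of -0.19 and -0.57, against 0.87 and 1.20 for its 3 such peaks, and around SOX4 of 0.28 and 0.14, against 0.54 and -0.01 for its 3. These differences between a gene and its neighbors were not tested. SOX7 lay in a region that was lower in BrM2: 17 of 40 neighboring H3K27ac peaks were called lower than in Par, with a median of -1.21, and 20 of 40 lower than in LM2. DESeq2 called none of the SOX7 peaks, none of which had 20 normalized counts, and their median in BrM2 against Par was -0.39. Around SOX11 only 2 neighbors qualified, with medians of -0.17 and -1.25 against 0.50 and 1.33 for its 2 peaks.

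**Figure D5:**
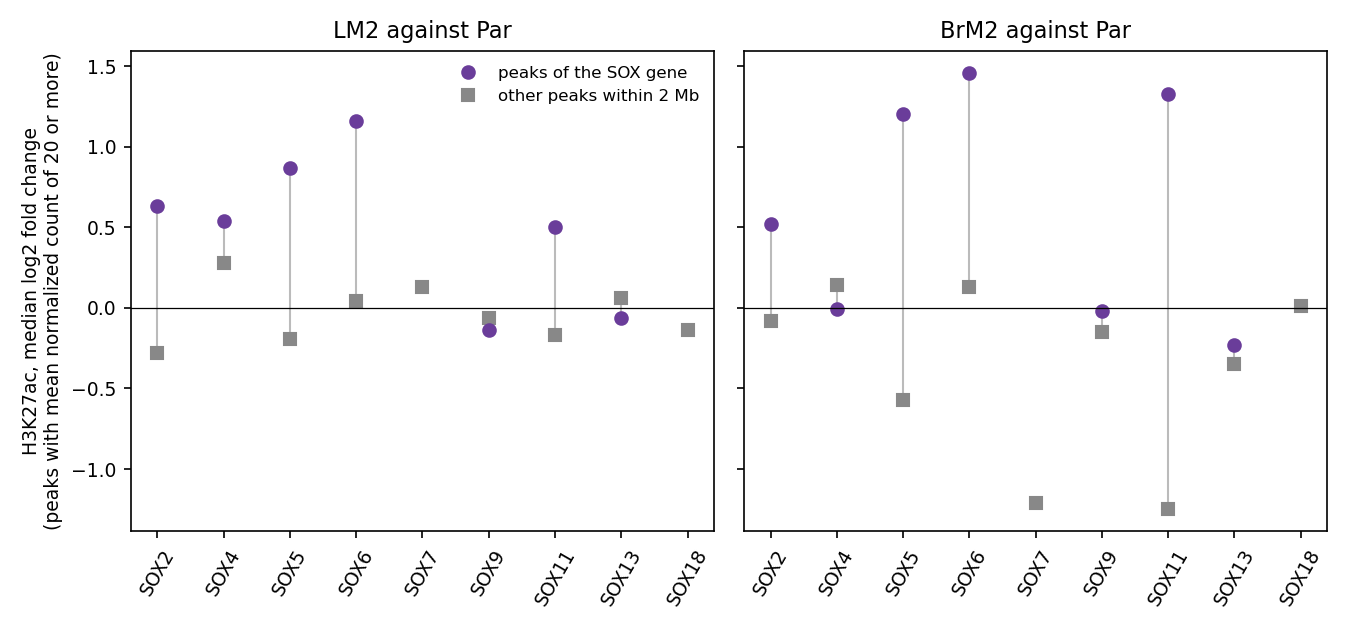
Median log2 fold change of H3K27ac against Par for the peaks of each SOX gene (circles) and for the other peaks within 2 Mb (squares), in LM2 (left) and BrM2 (right), over peaks with 20 or more normalized counts on average (SOX7 and SOX18 have none of their own). SOX2, SOX5, SOX6 and SOX11 lie above their neighbors in both panels, and the other peaks around SOX7 have a median of -1.21 in BrM2.

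H3K4me3 was also examined at starts of relatives and of genes that SOX proteins are known to bind. Of 9 other SOX genes, 3 had an H3K4me3 peak (SOX12, SOX15 and SOX21), and SOX21, a repressor of the B group, was higher in LM2 (1.5 ± 0.35, adjusted p = 0.00175) and differed from Par by 0.65 ± 0.35 in BrM2 (adjusted p = 0.540). All 4 of the related HMG-box genes LEF1, TCF7, TCF7L1 and TCF7L2 were marked, and none was called. Of 7 cartilage genes bound by SOX9 with SOX5 and SOX6, 3 were marked (COL2A1, HAPLN1 and MATN1). Of 4 endothelial genes bound by group F factors, 2 had a peak (PROX1 and VCAM1), and of 4 genes bound by SOX4 or SOX11, 3 were marked (EZH2, TEAD2 and TUBB3). The peaks of VCAM1 and SOX15 were near the floor, with 0 to 2.54 and 0 to 1.12 CPM per library. Per length they lay at the 4.50th and 16.5th percentiles of all H3K4me3 peaks. DESeq2 called none of these target genes against Par, where 2.51% (LM2) and 3.61% (BrM2) of all tested peaks were called, and VCAM1 had no adjusted p in LM2. MATN1, a cartilage matrix protein, had the smallest adjusted p, at 1.20 ± 0.39 in BrM2 (adjusted p = 0.0518).

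The labelled breast epithelial origin was checked on H3K4me3 at marker genes. All 8 epithelial markers (among them EPCAM and KRT18) and 4 of 6 mesenchymal markers, including VIM and ZEB1, had a peak, and all 4 luminal markers did. Levels differed: the strongest peak of a gene held 4.51 to 26.1 CPM per kb for epithelial markers and 3.49 to 20.9 for luminal ones. For the mesenchymal markers it held 12.5 to 59.9, and the median of peaks near protein-coding starts was 23.4. KRT8 and KRT18 share 1 peak. PTPRC of leukocytes and CDH5 of endothelial cells had none, and PECAM1 was not in the annotation used. Some markers moved with the lines. CLDN4 was called lower in LM2 (-3.44, DESeq2 adjusted p = 7.64e-11) and BrM2 (-2.04, 2.67e-04). ESR1 was called higher in both (2.52, adjusted p = 1.06e-06, and 1.62, 0.00686). CLDN7 (1.28, adjusted p = 0.00754) and FOXA1 (1.45, 0.00153) were called higher in BrM2. The luminal markers PGR and GATA3 were lower in LM2 than in Par without a call (adjusted p = 0.287 and 0.538). PGR was called higher in BrM2 than in LM2 (2.50, adjusted p = 4.33e-04), as was CLDN7 (1.54, 5.01e-04). The part of these markers in the SOX differences was not tested.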

How the data were processed

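H3K4me3 and H3K27ac ChIP-seq libraries of Par, LM2 and BrM2 cells were analysed (15 samples, of which 3 inputs were not analysed here). Per the submitters' processing notes, reads were processed with Trimmomatic 0.32, Bowtie2 2.3.4.3 (hg19), Picard 2.18.21 and MACS2 2.1.2. The values deposited are raw counts of reads in each peak, obtained by the authors with featureCounts 1.6.0 (file header) for every library. Peaks were called by them on the merged libraries of a mark, so a region marked in 1 line can be missed. Groups came from the sample titles, and 0 columns were left unmatched. The labels give 10 min of fixation, and the study's methods another time.

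Peaks were annotated with GENCODE 44 mapped to GRCh37. Counts of all peaks of a mark were fitted with DESeq2 1.42.0 (R 4.3.3; Wald test, cell line as the only term, Benjamini-Hochberg adjustment, default filtering, call at adjusted p under 0.05). Tests were checked on simulated counts of independent libraries, which lack the shared deviation of same-numbered libraries given below. There DESeq2 recovered 57% of H3K4me3 and 20% of H3K27ac changes of 1 on the log2 scale. For changes of 2 it recovered 93% and 77%. Alternatives were edgeR 4.0.16, the replicate block, other scaling, filters and distances, and leaving out each library. The members and gene lists were chosen with earlier results of these data known. Named peaks were every H3K4me3 member and, per gene, the H3K27ac peak with the highest mean normalized count and the called peak with the smallest p per contrast. Same-numbered libraries deviated together (r = 0.788 to 0.843 for H3K4me3 and 0.407 to 0.607 for H3K27ac). The numbers in the titles were taken as pairs in the replicate block only. The main fit and the fits without single libraries left this pairing out. The labels name no shared batch. The sequence of 1 H3K27ac peak is not reported here.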

Additional observations from a re-analysis of the deposited data

How the results depend on the processing

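The number of SOX peaks called depended on the setting. The share of all peaks called was counted only for DESeq2 without and with the block. For H3K4me3 in LM2 against Par it was 2.51% without and 14.4% with the block. Counts under the other settings therefore cannot be read as particular to the SOX peaks. No difference called by DESeq2 without the block changed direction, but 4 differences of named peaks called only by edgeR with the replicate block did. H3K4me3 at the main SOX13 start in BrM2 was called lower than in Par (-0.31) and LM2 (-0.24), and was 0.04 and 0.15 with 5 Mb window medians removed. H3K4me3 at SOX4 in LM2 against Par (0.18) was -0.19 and -0.18 without Par replicate 2 or LM2 replicate 1, and in BrM2 against LM2 (-0.27) was 0.02 without LM2 replicate 1. For H3K4me3 in LM2 against Par, 2 calls became 1 with edgeR, 4 with the replicate block in DESeq2, 5 with the block in edgeR, 0 with gene 5′ ends only, and 0 to 2 without single libraries. In BrM2 against Par, 1 call became 0, 3, 4 and 0 under the same settings, 2 with 5 Mb window medians removed, and 0 to 1 without single libraries. In BrM2 against LM2, 0 calls became 2 with the replicate block in DESeq2 and 5 in edgeR. For H3K27ac in LM2 against Par, 5 calls became 9 with edgeR (8 higher and 1 lower), 13 with its replicate block, 2 with 5 Mb window medians removed, 2 with only the 2 lines compared, 1 with gene 5′ ends only, and 1 to 2 without single libraries. In BrM2 against Par, 4 calls became 7, 13 and 2 with edgeR, its replicate block and gene 5′ ends only, and 1 to 4 without single libraries. In BrM2 against LM2, 0 calls became 3 with the replicate block in edgeR. The cause was not tested, except that gene 5′ ends give fewer members. Leaving out a library leaves 1 sample in a line, assumed to vary like the others. Each line had 2 replicates, and 11 H3K27ac members had too few reads for an adjusted p against Par. The paired fit changed no other call of a named peak in DESeq2.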
